A study of Mus musculus with 8 samples.

Results

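The alcohol, aldehyde, retinol and steroid dehydrogenases described here were chosen by symbol alone, with case ignored: every symbol that begins with Akr1 or Akr7, or with Adh, Aldh, Dhrs, Rdh or Hsd followed by a digit. The rule gave 83 of the 21757 genes in the mouse count table. It gave 77 of the 60237 genes in the human tables, where only protein-coding genes were taken. These enzymes use NAD or NADP to move hydride between an alcohol and an aldehyde or ketone, or to oxidise an aldehyde to an acid. In the gut wall they clear dietary alcohols and aldehydes, interconvert hydroxysteroids and ketosteroids, and turn retinol into retinal and then, through the ALDH1A enzymes, into retinoic acid. The aldo-keto reductases (Akr), short-chain dehydrogenases (Dhrs, Rdh and most Hsd), medium-chain alcohol dehydrogenases (Adh) and aldehyde dehydrogenases (Aldh) are separate protein families that meet in these reactions.

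Polyadenylated RNA was sequenced from 8 libraries made with a custom Smart-seq2 protocol. They form 4 groups of 2 libraries. The first experiment set Ctnnb1-ex3 intestinal organoids (mouse small-intestinal epithelium grown as a three-dimensional culture) against wild-type (WT) organoids. The label names exon 3 of the beta-catenin gene, the exon that carries the residues by which the protein is marked for breakdown; it does not describe the allele, the Cre driver, the number of clones or the animals. The second experiment set a short hairpin RNA against Prmt1, an arginine methyltransferase (sh-Prmt1), against a scrambled hairpin (sh-scramble), with no genotype or medium of its own in the labels. Per the protocol in the labels, the medium of Ctnnb1-ex3 organoids held Noggin and EGF alone, while that of WT organoids held Wnt3a and R-spondin1 as well, so genotype and medium cannot be told apart. The labels call all 8 libraries mouse, but the knockdown tables list only human genes, so those values are read as human genes from cells that the labels do not describe. Whether replicates came from separate cultures is not stated, so each p-value speaks of the spread among the libraries at hand, and that spread may be technical.

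The total count was 6015933 and 3683169 in the Ctnnb1-ex3 libraries and 4631527 and 2951887 in the WT libraries, and it lay between 39608249 and 53193449 in the 4 knockdown libraries. Taken as the limit of detection, 3 counts amount in the mouse libraries to between 0.451 and 1.14 CPM (counts scaled to library size), and in the human libraries to between 0.0528 and 0.0809 CPM. PRMT1 had 128 and 190 counts in sh-Prmt1 against 1373 and 1451 in sh-scramble (log2 fold change -3.48 ± 0.12 SE). Axin2, a direct target of beta-catenin, was higher in Ctnnb1-ex3 (log2 fold change 3.40 ± 0.17 SE). In the knockdown tables EPCAM, VIL1, CDX2 and FABP1, markers of gut epithelium, were all read at over 50 CPM in every library, whereas the enterocyte markers APOA1, APOA4 and LCT had at most 7 counts.

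Most of the dehydrogenase genes that could be tested fell in Ctnnb1-ex3 organoids. Of the 83 genes, 61 passed the filter on low counts. Of these, 41 were lower and 2 were higher in Ctnnb1-ex3 than in WT at an edgeR adjusted p under 0.05 (two-sided quasi-likelihood test, Benjamini-Hochberg over all 12976 genes tested, with no limit on the fold). Over all genes tested, 20.5% were lower and 20.3% were higher, against 67.2% and 3.28% of the dehydrogenases tested. The median log2 fold change was -0.92 over the 61 genes and 0.02 over all genes tested. Of the 61, 50 had both Ctnnb1-ex3 libraries below both WT libraries, against 35.6% of all genes tested, and 7 had both above, against 38.1%. Summed over all 83 genes, the dehydrogenases took 0.446% and 0.433% of the counts in Ctnnb1-ex3 against 0.793% and 0.853% in WT. In such bulk libraries, fewer cells of a type and less RNA per cell cannot be told apart. When 1 library was left out, between 33 and 48 of the genes were lower and between 1 and 6 were higher; a fit of this kind assumes that the lone library of a group varies like the pair in the other group.

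**Figure D1:**
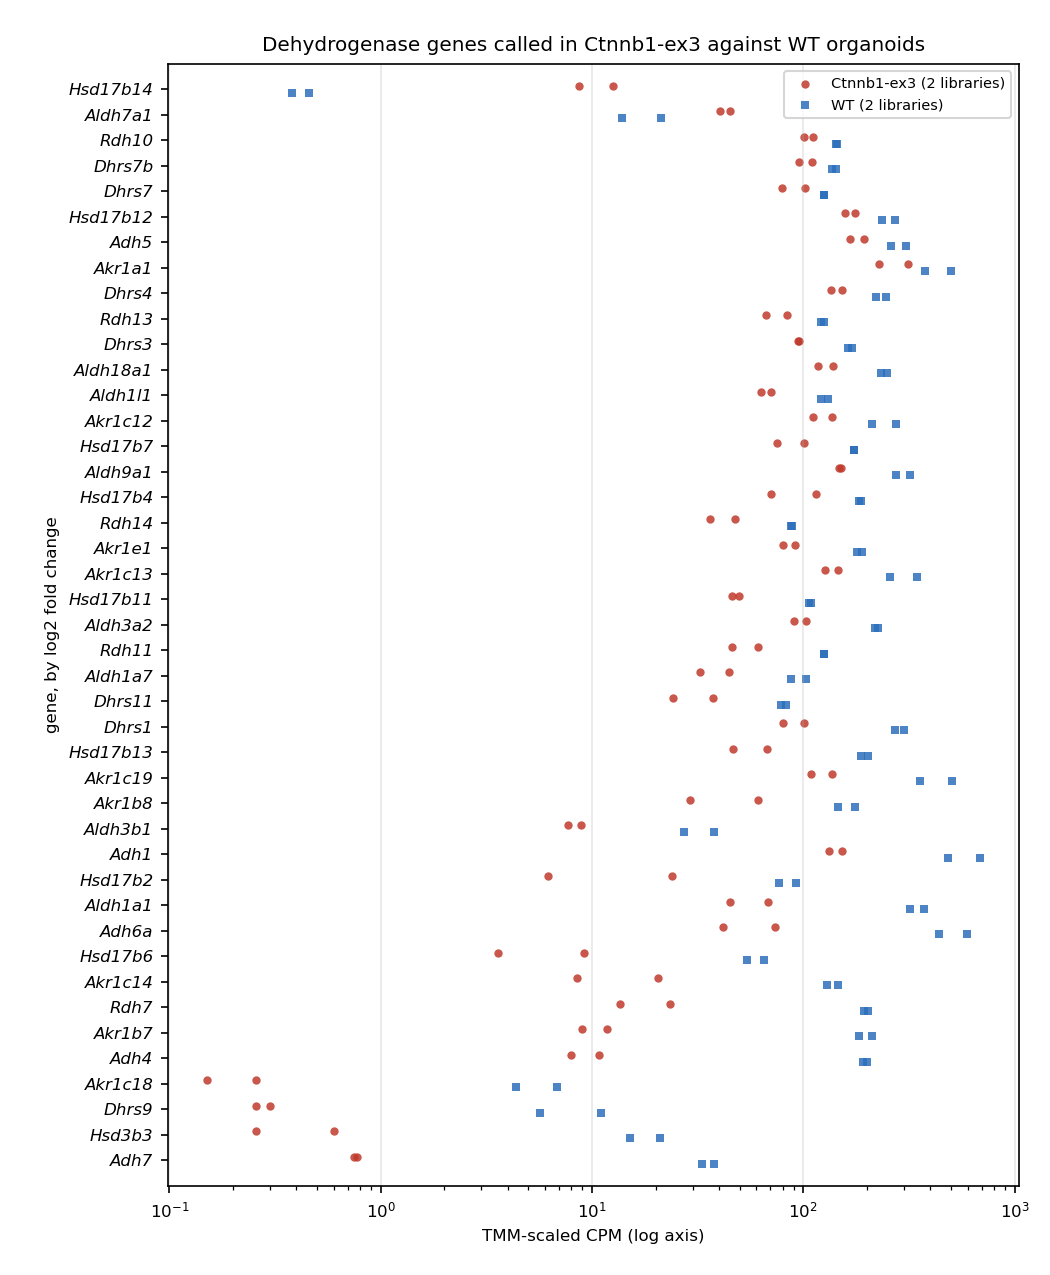
Level of each of the 43 called dehydrogenase genes in TMM-scaled CPM on a log axis, with circles for the 2 Ctnnb1-ex3 libraries and squares for the 2 WT libraries; genes are ordered by log2 fold change, with the largest rise at the top. For the 41 genes below Aldh7a1 both circles lie left of both squares, and for Hsd17b14 and Aldh7a1 both lie right of them.

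The alcohol dehydrogenases showed the largest fall of the 7 symbol stems. Their summed level was 405 and 379 CPM in Ctnnb1-ex3 against 1406 and 1825 CPM in WT, 4.12-fold lower, and all 5 genes tested were called. These 5 genes and the low-count Adh6-ps1 lie side by side on chromosome 3 (chr3:138217760-138455499, GRCm38, GENCODE M21). The promoter windows of the 3 that fell most are shown, since these neighbours moved together. Each holds the 250 bases before and the 50 after the start in RefSeq (build GRCm38.p6, plus strand), and capitals mark every match to one of the searched motifs on either strand.
Adh7 (chr3:138217523-138217822): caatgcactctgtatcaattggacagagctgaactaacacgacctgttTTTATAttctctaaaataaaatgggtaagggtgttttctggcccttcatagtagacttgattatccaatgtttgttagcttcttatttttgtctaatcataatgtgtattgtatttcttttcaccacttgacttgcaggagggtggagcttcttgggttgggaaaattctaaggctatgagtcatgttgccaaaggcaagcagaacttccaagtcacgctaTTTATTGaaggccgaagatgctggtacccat
Adh4 (chr3:138415247-138415546): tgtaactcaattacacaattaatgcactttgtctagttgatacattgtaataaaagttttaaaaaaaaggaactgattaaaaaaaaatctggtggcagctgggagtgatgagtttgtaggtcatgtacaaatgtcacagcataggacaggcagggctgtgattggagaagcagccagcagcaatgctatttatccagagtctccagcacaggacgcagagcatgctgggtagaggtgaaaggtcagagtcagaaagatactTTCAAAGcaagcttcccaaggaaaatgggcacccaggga
Adh6a (chr3:138313036-138313335): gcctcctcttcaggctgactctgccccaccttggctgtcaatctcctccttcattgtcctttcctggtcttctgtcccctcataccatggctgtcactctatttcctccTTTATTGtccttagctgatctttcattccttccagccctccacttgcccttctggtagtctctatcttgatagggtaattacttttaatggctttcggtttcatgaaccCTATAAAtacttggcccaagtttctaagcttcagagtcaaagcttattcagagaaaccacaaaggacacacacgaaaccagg

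The motifs searched were the TCF/LEF letters CTTTGAT and CTTTGAA, the CDX letters TTTATNG, the TATA box TATAAA and part of the HNF4 site, CAAAGTC; matches to CDX and TATA, and to TCF/LEF and HNF4, can overlap. In the Adh4 window the capitals are 1 TCF/LEF match that begins at position 12 after the start. In the Adh6a window they are CDX matches at -141 and -32, the second of which overlaps a TATA match at -31. The Adh7 window has a CDX match at position 20 and a TATA match at -202. Some genes have several windows, which can overlap, so shares are given by gene. Of the 37 genes lower in Ctnnb1-ex3 with a window, 4 (Adh4, Aldh1a1, Dhrs3 and Hsd3b3) held TCF/LEF letters in any window, 10.8%, against 9.88% of all 27025 genes in the table. The CDX letters were in windows of 6 of the 37 genes, 16.2%, against 12.5% of all, the TATA letters in 16.2% against 15.7%, and the HNF4 letters in 3 genes, 8.11% against 5.0%. These are matches of letters and show no binding.

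Adh7, a class IV enzyme that oxidises retinol, had 0.751 and 0.771 CPM in Ctnnb1-ex3 against 33.2 and 37.7 CPM in WT (log2 fold change -5.49 ± 0.44 SE, edgeR adjusted p = 0.000176). The Ctnnb1-ex3 values rest on 5 and 3 counts, at the limit of detection. Adh4, the class II enzyme, had 10.8 and 7.96 CPM against 191 and 200 CPM (log2 fold change -4.34 ± 0.18 SE, edgeR adjusted p = 2.39e-05), a fall of 20.3-fold on counts far from that limit. Adh6a had 73.3 and 41.6 CPM in Ctnnb1-ex3 against 437 and 593 CPM in WT (log2 fold change -3.14 ± 0.29 SE, edgeR adjusted p = 0.000281); its level differed between replicates by more than that of Adh4 in both groups. Adh1, the class I enzyme that oxidises ethanol and retinol, had 152 and 133 CPM against 483 and 685 CPM (log2 fold change -2.03 ± 0.22 SE, edgeR adjusted p = 0.000485). Per kilobase of exon Adh1 had the highest mean of the 83 genes in WT, 261 ± 64.1 CPM per kb (SD, n = 2), and it averaged 63.8 ± 6.06 CPM per kb in Ctnnb1-ex3. Adh5, the glutathione-dependent formaldehyde dehydrogenase found in nearly all cells, moved least, with 167 and 195 CPM against 260 and 307 CPM (log2 fold change -0.65 ± 0.17 SE, edgeR adjusted p = 0.0188). The call for Adh5 was lost without WT replicate 1 (edgeR adjusted p = 0.0559) or WT replicate 2 (0.157) and with upper-quartile scaling (0.0659).

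**Figure D2:**
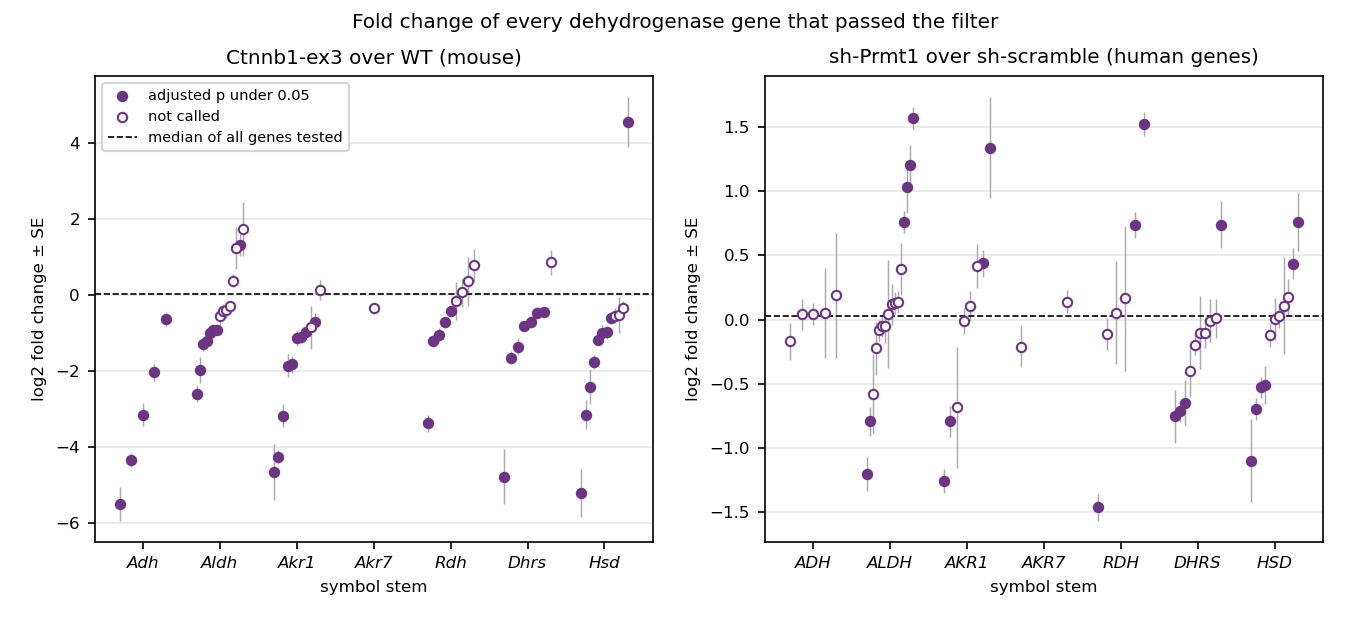
Log2 fold change ± SE (edgeR fit, 2 libraries a group) of every dehydrogenase gene that passed the filter, grouped by symbol stem, for Ctnnb1-ex3 over WT on the left and sh-Prmt1 over sh-scramble on the right; filled circles are called, open circles are not, and the dashed line is the median of all genes tested. On the left the 5 Adh genes lie between -5.49 and -0.65, and on the right the 5 ADH genes lie between -0.17 and 0.19; the vertical axes differ.

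Of the Rdh genes tested, Rdh7 fell most. It had 23.3 and 13.6 CPM in Ctnnb1-ex3 against 203 and 193 CPM in WT (log2 fold change -3.38 ± 0.22 SE, edgeR adjusted p = 7.96e-05). Rdh7 shares 20.3% of its 31-base words with other genes, chiefly the neighbouring Rdh18-ps, which was not called (log2 fold change 0.07). Dhrs9, an oxidase of retinol and 3-alpha-hydroxysteroids, had 2 and 1 counts in Ctnnb1-ex3 against 48 and 15 in WT. Per TMM-scaled library size, Dhrs9 had a ratio of WT to Ctnnb1-ex3 of 31.8 (95% exact interval 10.4 to 158, counting error only). Its fitted log2 fold change was -4.77 (edgeR adjusted p = 0.00188) and passed no threshold without WT replicate 1 (log2 fold change -4.23, edgeR adjusted p = 0.109). Rdh10, the main retinol oxidase of the embryo, changed far less, with 111 and 101 CPM against 143 and 145 CPM (log2 fold change -0.43 ± 0.13 SE, edgeR adjusted p = 0.0323). The Rdh10 call was lost without either WT library (edgeR adjusted p = 0.183 and 0.242), with upper-quartile scaling (0.266), with no filter (0.135) and with DESeq2 (adjusted p = 0.0818).

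Enzymes that reduce retinal back to retinol fell as well. Rdh11 had 61.0 and 46.2 CPM in Ctnnb1-ex3 against 125 and 125 CPM in WT (log2 fold change -1.21 ± 0.16 SE, edgeR adjusted p = 0.00113). Dhrs3 had 95.1 and 94.0 CPM against 163 and 171 CPM (log2 fold change -0.82 ± 0.13 SE, edgeR adjusted p = 0.00246). Both Ctnnb1-ex3 libraries lay below both WT libraries in either gene. Rdh14 (log2 fold change -1.06, edgeR adjusted p = 0.00272), Rdh13 (-0.72, 0.00738) and Dhrs4 (-0.71, 0.00904), reductases that accept retinal among other carbonyls, were also lower. Dhrs4 had 135 and 152 CPM in Ctnnb1-ex3 against 221 and 247 CPM in WT and lost its call without WT replicate 2 (edgeR adjusted p = 0.0775). Further members of the Dhrs stem were Dhrs1 (log2 fold change -1.65, edgeR adjusted p = 0.000422), Dhrs11 (-1.37, 0.00255), Dhrs7 (-0.47, 0.0445) and Dhrs7b (-0.45, 0.0334), all lower. Dhrs7 and Dhrs7b lost their calls without either WT library (edgeR adjusted p = 0.177 and 0.203 for Dhrs7, 0.227 and 0.179 for Dhrs7b), with upper-quartile scaling (0.240 and 0.230), with no filter (0.104 and 0.116) and with DESeq2 (adjusted p = 0.0919 and 0.0815), and Dhrs7 also without Ctnnb1-ex3 replicate 1 (edgeR adjusted p = 0.0632). Rdh9, Rdh18-ps, Rdh5 and Rdh1 were not called, with log2 fold changes between -0.17 and 0.78, and Dhrs13 was not called at 0.85 (edgeR adjusted p = 0.0675), though it passed the threshold with upper-quartile scaling (0.0311), with the replicate block (0.0484) and without Ctnnb1-ex3 replicate 1 (0.00620) or 2 (0.0496).

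Aldh1a1, the enzyme that turns retinal into retinoic acid, had 68.4 and 45.2 CPM in Ctnnb1-ex3 against 321 and 375 CPM in WT (log2 fold change -2.60 ± 0.22 SE, edgeR adjusted p = 0.000206). Both Ctnnb1-ex3 libraries lay more than 4-fold below the lower WT library. The other retinal dehydrogenases were near nothing: Aldh1a2 had 1 and 2 counts in Ctnnb1-ex3 against 2 and 1 in WT, and Aldh1a3 had 1 and 2 counts against 1 and 1, so no difference was detectable at this depth. Aldh1a7, a rodent paralogue beside Aldh1a1 on chromosome 19, fell by 1.29 on the log2 scale (edgeR adjusted p = 0.00166) and shares 13.8% of its 31-base words with Aldh1a1.

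The other aldehyde dehydrogenases split. Lower were Aldh3b1 (log2 fold change -1.98, edgeR adjusted p = 0.00311), Aldh3a2, the fatty aldehyde dehydrogenase (-1.20, 0.000767), and Aldh1l1, the cytosolic formyltetrahydrofolate dehydrogenase (-0.92, 0.00165). Aldh9a1, an enzyme of carnitine synthesis (-0.99), and Aldh18a1, which starts proline synthesis (-0.91), were lower as well. Aldh9a1 had 150 and 147 CPM in Ctnnb1-ex3 against 275 and 319 CPM in WT (edgeR adjusted p = 0.00246), and Aldh18a1 had 138 and 118 CPM against 232 and 250 CPM (edgeR adjusted p = 0.00324). The mitochondrial enzymes of acetaldehyde were not called: Aldh2 had 58.3 and 90.2 CPM against 96.0 and 97.8 CPM (log2 fold change -0.40 ± 0.20 SE, edgeR adjusted p = 0.152). Aldh1b1 had 176 and 201 CPM against 229 and 275 CPM (log2 fold change -0.42 ± 0.17 SE, edgeR adjusted p = 0.0813). In both, the Ctnnb1-ex3 libraries lay below the WT libraries but close to them. Aldh2 passed the threshold without Ctnnb1-ex3 replicate 2 (log2 fold change -0.73, edgeR adjusted p = 4.01e-05), and Aldh1b1 did so without that library (edgeR adjusted p = 0.0447) and with the replicate number as a block (0.00541). Aldh7a1, an enzyme of lysine breakdown, was one of the 2 genes that rose, with 45.1 and 40.6 CPM against 13.8 and 21.3 CPM (log2 fold change 1.31 ± 0.29 SE, edgeR adjusted p = 0.00893); without WT replicate 1 the call was lost (log2 fold change 0.98, edgeR adjusted p = 0.0673). Above WT but not called were Aldh4a1, the proline breakdown enzyme (log2 fold change 1.73, edgeR adjusted p = 0.0889), the mitochondrial Aldh1l2 (1.22, 0.109) and Aldh5a1, the succinic semialdehyde dehydrogenase (0.37, 0.110). Aldh4a1 passed the threshold without Ctnnb1-ex3 replicate 1 (edgeR adjusted p = 5.66e-05), as Aldh1l2 (0.00244) and Aldh5a1 (0.00134) did without Ctnnb1-ex3 replicate 2, and Aldh5a1 did with upper-quartile scaling (0.0265).

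Of the aldo-keto reductases, 9 of 11 Akr1 genes tested fell, and the summed Akr1 level was 762 and 942 CPM in Ctnnb1-ex3 against 1914 and 2378 CPM in WT. Akr1b7, an aldose reductase relative known from mouse intestine and adrenal gland, had 9.02 and 11.8 CPM in Ctnnb1-ex3 against 183 and 211 CPM in WT (log2 fold change -4.27 ± 0.19 SE, edgeR adjusted p = 2.39e-05). Akr1b8 had 29.0 and 61.1 CPM against 146 and 175 CPM (log2 fold change -1.86 ± 0.30 SE, edgeR adjusted p = 0.00250), and -2.46 without Ctnnb1-ex3 replicate 2. Akr1b10, which lies between them on chromosome 6, was not called, with 45.2 and 32.6 CPM against 40.1 and 31.2 CPM (log2 fold change 0.13 ± 0.25 SE, edgeR adjusted p = 0.713). Its groups overlapped, so 1 gene within a run of 3 tested neighbours stood apart from the falls on either side. Akr1b3, the aldose reductase itself, was at the limit of detection, with 4 and 3 counts against 2 and 2. With other genes Akr1b3 shares 15.2% of its 31-base words, chiefly Gm38056, and Akr1b7 shares 27.7%, chiefly Gm13857. How reads from such words were counted is not stated.

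The Akr1c genes and Akr1e1 on chromosome 13 (chr13:4049011-4609174) fell in all 6 members tested. Akr1c14, a 3-alpha-hydroxysteroid dehydrogenase, had 20.6 and 8.48 CPM in Ctnnb1-ex3 against 147 and 129 CPM in WT (log2 fold change -3.17 ± 0.31 SE, edgeR adjusted p = 0.000325), and -4.04 without Ctnnb1-ex3 replicate 1. Akr1c18, which inactivates progesterone, stood at 1 count in each Ctnnb1-ex3 library, the smallest number the mouse table holds, against 19 and 18 counts in WT, so it was at least 9.19-fold lower when 3 counts per library are taken as the limit. The Akr1c18 call (edgeR adjusted p = 0.00241) was lost without either WT library (edgeR adjusted p = 0.0604 and 0.0830). Akr1c19 had 109 and 136 CPM against 357 and 506 CPM (log2 fold change -1.82 ± 0.22 SE, edgeR adjusted p = 0.000772). Akr1c13 had 127 and 146 CPM against 258 and 346 CPM (log2 fold change -1.14 ± 0.19 SE, edgeR adjusted p = 0.00293), and Akr1c12 had 111 and 137 CPM against 212 and 274 CPM (log2 fold change -0.97 ± 0.19 SE, edgeR adjusted p = 0.00532). Akr1c12 and Akr1c13 share 39.2% and 33.7% of their 31-base words with each other, so how their reads were split between them is uncertain. Akr1e1 fell by 1.11 on the log2 scale (edgeR adjusted p = 0.000957). Akr1a1, the general aldehyde reductase, had 227 and 312 CPM against 377 and 500 CPM (log2 fold change -0.70 ± 0.22 SE, edgeR adjusted p = 0.0380). The Akr1a1 call was lost without Ctnnb1-ex3 replicate 1 (edgeR adjusted p = 0.138), WT replicate 1 (0.0502) or WT replicate 2 (0.229), and with upper-quartile scaling (0.104). Akr7a5, an aflatoxin aldehyde reductase, was not called, with 122 and 136 CPM against 155 and 173 CPM (log2 fold change -0.35 ± 0.14 SE, edgeR adjusted p = 0.0881), and passed the threshold with the replicate block (0.0242) and without Ctnnb1-ex3 replicate 2 (0.0291).

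The hydroxysteroid dehydrogenases held both the steepest fall after Adh7 and the largest rise. Hsd3b3, a 3-beta-hydroxysteroid dehydrogenase and isomerase, had 4 and 1 counts in Ctnnb1-ex3 against 91 and 40 in WT. Per TMM-scaled library size, its ratio of WT to Ctnnb1-ex3 was 39.6 (95% exact interval 16.6 to 124, counting error only). The fitted log2 fold change of Hsd3b3 was -5.21 (edgeR adjusted p = 0.000704), and -5.99 without Ctnnb1-ex3 replicate 1. Hsd17b6, a 3-alpha-hydroxysteroid and retinol oxidase, had 9.17 and 3.60 CPM in Ctnnb1-ex3 against 64.9 and 54.0 CPM in WT (log2 fold change -3.15 ± 0.39 SE, edgeR adjusted p = 0.000819), and -4.06 without Ctnnb1-ex3 replicate 1. Hsd17b2, which inactivates estradiol and testosterone, had 23.9 and 6.17 CPM against 92.6 and 76.5 CPM (log2 fold change -2.41 ± 0.46 SE, edgeR adjusted p = 0.00483), and -3.79 without Ctnnb1-ex3 replicate 1. For Hsd3b3, 4 and 1 counts are too few to rank the Ctnnb1-ex3 libraries. In all 3 genes the second Ctnnb1-ex3 library was the lower one, and both libraries lay below WT. The same library was also lower for Lct, the lactase of mature enterocytes (229 and 5 raw counts in Ctnnb1-ex3 against 249 and 97 in WT). Summed over 10 enterocyte markers, the Ctnnb1-ex3 libraries lay closer, at 1479 and 1208 CPM. The sum over 10 general epithelial markers was 1940 and 2625 CPM in these libraries. A link to the 3 genes was not tested.

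Among Hsd genes with roles in lipid metabolism, the lipid-droplet proteins Hsd17b13 (log2 fold change -1.76, edgeR adjusted p = 0.000459) and Hsd17b11 (-1.18, 0.000623), neighbours on chromosome 5, both fell. Hsd17b4, the peroxisomal bifunctional enzyme of fatty acid oxidation, had 115 and 70.6 CPM in Ctnnb1-ex3 against 184 and 188 CPM in WT (log2 fold change -0.997 ± 0.22 SE, edgeR adjusted p = 0.00864). Hsd17b7, an enzyme of cholesterol synthesis, fell by 0.98 on the log2 scale (edgeR adjusted p = 0.00341). Hsd17b12, which lengthens very long fatty acids, had 158 and 176 CPM against 236 and 271 CPM (log2 fold change -0.60 ± 0.16 SE, edgeR adjusted p = 0.0192), and lost its call without either WT library (edgeR adjusted p = 0.0708 and 0.170) and with upper-quartile scaling (0.0777). Hsd17b10, a mitochondrial enzyme and subunit of the mitochondrial RNase P, was not called, with 138 and 175 CPM against 180 and 220 CPM (log2 fold change -0.35 ± 0.18 SE, edgeR adjusted p = 0.152); it passed the threshold with the replicate block (edgeR adjusted p = 0.0166) and without Ctnnb1-ex3 replicate 2 (0.0204). Per kilobase it had the highest level of the 83 genes in Ctnnb1-ex3, with a mean of 121 ± 20.1 CPM per kb against 154 ± 21.7 CPM per kb in WT (SD, n = 2 each). Hsd11b2, which inactivates glucocorticoids, was not called at 11.3 and 5.39 CPM against 11.97 and 12.55 CPM (log2 fold change -0.53 ± 0.48 SE, edgeR adjusted p = 0.400). Without Ctnnb1-ex3 replicate 1 its log2 fold change was -1.19. Hsd3b7, of bile acid synthesis, was not called either (log2 fold change -0.55, edgeR adjusted p = 0.0515). Of its 31-base words 88.8% are shared with other genes, and 53.1% with a transcript of the annotated gene Gm49388. Hsd3b7 passed the threshold with relative log expression factors (edgeR adjusted p = 0.0371), with the replicate block (0.0316) and without Ctnnb1-ex3 replicate 1 (0.000251) or 2 (0.0410). Hsd17b14, which oxidises estradiol, rose (edgeR adjusted p = 0.00164), with 58 and 49 counts in Ctnnb1-ex3 against 2 and 1 in WT. Per TMM-scaled library size, its ratio of Ctnnb1-ex3 to WT was 23.6 (95% exact interval 7.85 to 116, counting error only).

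The size of the changes was uneven. Of the 41 lower genes, 26 fell by more than 1 on the log2 scale, 13 by more than 2 and 6 by more than 4. Such sizes were not counted over all genes, so they are not read as a trait of the dehydrogenases. Per kilobase of exon, the 5 highest dehydrogenases in WT were Adh1 (261 CPM per kb), Akr1c13 (211), Adh6a (203), Akr1c12 (193) and Akr1a1 (159). The SDs of these means ranged from 31.7 to 64.1 CPM per kb, and both WT libraries ordered these 5 genes in this way. In WT replicate 1, however, Akr1b7 (143 CPM per kb) and Hsd17b10 (139) lay above Akr1a1 (137). In Ctnnb1-ex3 the 5 highest were Hsd17b10 (121 CPM per kb), Akr1c12 (98.6), Akr1a1 (97.99), Akr1c13 (95.2) and Aldh1b1 (81.9), with SDs between 7.80 and 21.8 CPM per kb. Dhrs4 was level with Aldh1b1 at 81.9 CPM per kb. The 22 genes under the filter reached at most 49 counts in any library: Adh6-ps1, Akr1b3, Akr1c6, Akr1c20, Akr1c21, Akr1cl, Aldh1a2, Aldh1a3, Aldh3a1, Aldh3b2, Aldh8a1, Dhrs2, Dhrs7c, Hsd3b2, Hsd3b5, Hsd3b6, Hsd11b1, Hsd17b1, Rdh8, Rdh12, Rdh16 and Rdh19. Akr1d1 and Aldh6a1 passed it and were not called (log2 fold change -0.86 and -0.54), as did Aldh16a1 (-0.29). Aldh6a1 passed the threshold without Ctnnb1-ex3 replicate 1 (log2 fold change -0.97, edgeR adjusted p = 2.64e-06) and with the replicate block (0.0303), and Aldh16a1 without Ctnnb1-ex3 replicate 2 (0.0463).

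Genes outside the symbol rule that share these pathways were listed separately. Of 18 retinoid handling genes tested, 10 were lower and 5 higher in Ctnnb1-ex3. Among the lower ones were the retinol carriers Rbp7 (log2 fold change -3.65) and Rbp2 (-1.39), the carotenoid cleaving Bco2 (-3.20), and Lrat (-0.94) and Dgat1 (-1.54), which esterify retinol. Higher were the retinoic acid receptor Rarb (2.01), the carotenoid transporter Scarb1 (1.40), the carotene cleaving Bcmo1 (1.29) and the retinol carrier Rbp4 (1.09). Of 16 other aldehyde, alcohol and carbonyl enzymes tested, 9 were lower, with Cbr3 (-2.98), Nqo1 (-2.36) and Xdh (-2.25) at the far end, and Hpgds was higher (1.59). Of 14 genes of NAD and NADP supply, 7 were lower and 2 higher, and of 9 other steroid genes 4 were lower and 0 higher. The medians of these lists were -0.81, -0.72, -0.70 and -0.29. Over all genes tested, 20.5% were lower and 20.3% higher, and the median was 0.02.

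Markers of mature enterocytes moved the same way as the dehydrogenases. Of 10 enterocyte markers, 9 were lower in Ctnnb1-ex3, and their summed level was 1479 and 1208 CPM in Ctnnb1-ex3 against 4952 and 6037 CPM in WT. All 6 crypt base stem cell markers were higher, with a sum of 1259 and 1445 CPM against 430 and 448 CPM. Of the 10 general epithelial markers, 4 were lower and 6 were not called, and none of the 10 was at the lowest value throughout. Immune genes were uneven: Gzma had 110 counts in Ctnnb1-ex3 replicate 2 and 1 in each other library, and Lyz2 had 323 counts in WT replicate 1 and 3 in WT replicate 2. The part of any of these in the dehydrogenase changes was not tested.

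In the knockdown experiment the dehydrogenases were called higher and lower in like numbers. Of the 77 human genes, 58 passed the filter; 11 were higher and 12 lower in sh-Prmt1 than in sh-scramble. That is 19.0% and 20.7% of those tested, against 20.5% higher and 20.4% lower over all 18452 genes tested, so both shares are close to the background. The median log2 fold change was 0.01 over the 58 genes and 0.03 over all genes tested. In CPM both sh-Prmt1 libraries lay below both sh-scramble libraries for 18 of the 58, against 34.4% of all genes tested, and above them for 17, against 36.7%. The summed level of the 77 genes was 1178 and 1075 TPM (transcript abundance scaled to a fixed library total) in sh-Prmt1 against 1129 and 1119 TPM in sh-scramble. Levels below are TPM, which account for the effective gene length of each library, whereas the fold changes come from the estimated counts, so the ratio of the TPM values can differ from the fold.

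**Figure D3:**
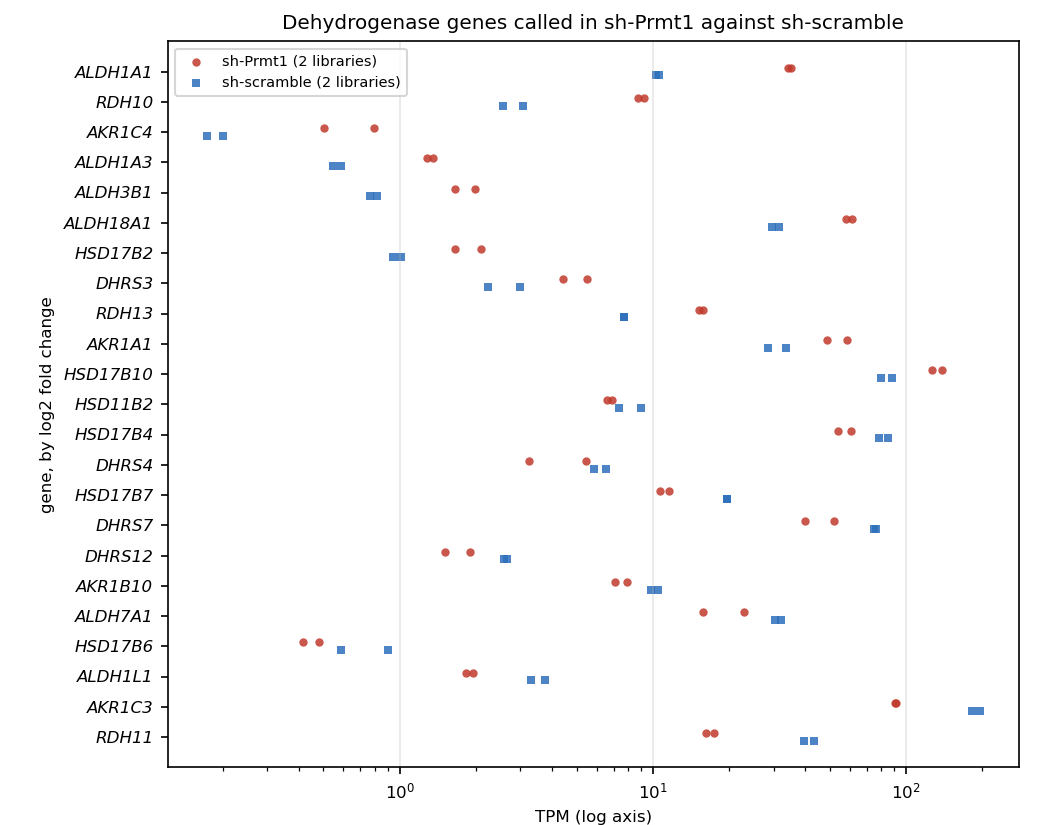
Level of each of the 23 called dehydrogenase genes in TPM on a log axis, with circles for the 2 sh-Prmt1 libraries and squares for the 2 sh-scramble libraries, ordered by log2 fold change with the largest rise at the top. The replicates of ALDH1A1, RDH11 and AKR1C3 lie close together and the groups apart.

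Retinoid enzymes were at both ends of the range. ALDH1A1 rose most, with 35.1 and 34.2 TPM in sh-Prmt1 against 10.6 and 10.3 TPM in sh-scramble (log2 fold change 1.56 ± 0.09 SE, edgeR adjusted p = 5.40e-06). ALDH1A3, a second retinal dehydrogenase, had 1.35 and 1.28 TPM against 0.546 and 0.589 TPM (log2 fold change 1.20 ± 0.16 SE, edgeR adjusted p = 0.000289). ALDH1A2, with 14 and 8 counts against 3 and 4, was under the filter. RDH10, the retinol oxidase, had 9.23 and 8.71 TPM in sh-Prmt1 against 2.57 and 3.09 TPM in sh-scramble (log2 fold change 1.52 ± 0.09 SE, edgeR adjusted p = 6.63e-06). RDH11, a retinal reductase, fell most, with 16.2 and 17.4 TPM against 43.2 and 39.6 TPM (log2 fold change -1.46 ± 0.10 SE, edgeR adjusted p = 1.26e-05). In each of these 4 called genes the groups were separated by more than the spread within them. DHRS3, also a retinal reductase, rose, with 5.504 and 4.43 TPM against 2.99 and 2.23 TPM (log2 fold change 0.74 ± 0.18 SE, edgeR adjusted p = 0.00978), and lost its call without sh-Prmt1 replicate 1 (edgeR adjusted p = 0.0550) or sh-scramble replicate 2 (0.0528). RDH13 was higher (log2 fold change 0.73, edgeR adjusted p = 0.000386), and DHRS4 (-0.65, 0.0164), DHRS7 (-0.71, 0.000136) and DHRS12 (-0.75, 0.0155) were lower. Without sh-Prmt1 replicate 2 the calls for DHRS4 (edgeR adjusted p = 0.0884) and DHRS12 (0.0626) were lost, and that for DHRS4 was lost with the effective length as an offset as well (0.0600). DHRS9 was not called, with 48.1 and 47.6 TPM against 51.6 and 50.2 TPM (log2 fold change -0.20 ± 0.08 SE, edgeR adjusted p = 0.0878).

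None of the 5 alcohol dehydrogenases tested was called. ADH5 had 68.9 and 57.9 TPM in sh-Prmt1 against 55.1 and 56.7 TPM in sh-scramble (log2 fold change 0.04 ± 0.09 SE, edgeR adjusted p = 0.722), and ADH1C had 39.7 and 28.5 TPM against 28.5 and 29.3 TPM (log2 fold change 0.04 ± 0.12 SE, edgeR adjusted p = 0.814). In TPM the groups overlapped for ADH1C, whereas both sh-Prmt1 values lay above both sh-scramble values for ADH5. ADH1B and ADH4 were each under 0.5 TPM in every library, ADH6 was not called (log2 fold change -0.17), and ADH1A and ADH7 had at most 2 rounded counts.

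Further aldehyde dehydrogenases that rose were ALDH3B1 (1.65 and 1.98 TPM in sh-Prmt1 against 0.763 and 0.811 TPM in sh-scramble, log2 fold change 1.03, edgeR adjusted p = 0.00284) and ALDH18A1 (61.1 and 57.9 TPM against 29.6 and 31.4 TPM, log2 fold change 0.76, edgeR adjusted p = 9.72e-05). Those that fell were ALDH1L1 (1.83 and 1.94 TPM against 3.75 and 3.29 TPM, log2 fold change -1.20, edgeR adjusted p = 0.000108) and ALDH7A1 (22.9 and 15.8 TPM against 32.0 and 30.3 TPM, log2 fold change -0.79, edgeR adjusted p = 0.000426). The groups did not overlap for any of the 4. ALDH2, the highest of its stem in TPM, had 67.9 and 59.0 TPM against 41.2 and 48.1 TPM, yet its log2 fold change on counts was 0.14 ± 0.08 SE (edgeR adjusted p = 0.221); with the effective length as an offset it was 0.35 and passed the threshold (edgeR adjusted p = 0.0279). ALDH1B1 was not called (log2 fold change 0.13).

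Of the aldo-keto reductases, AKR1C3, which makes testosterone and prostaglandin F, was the highest by TPM and fell, with 91.8 and 90.9 TPM in sh-Prmt1 against 196 and 182 TPM in sh-scramble (log2 fold change -1.26 ± 0.10 SE, edgeR adjusted p = 1.63e-05). Its close relatives AKR1C2 (63.0 and 66.2 TPM against 61.0 and 55.0 TPM, log2 fold change -0.01) and AKR1C1 (14.3 and 13.1 TPM against 13.6 and 11.1 TPM, log2 fold change 0.11) were not called. In TPM the groups overlapped for AKR1C1, whereas both sh-Prmt1 values lay above both sh-scramble values for AKR1C2. AKR1C4 rose at low level, 0.790 and 0.501 TPM against 0.200 and 0.173 TPM (log2 fold change 1.34 ± 0.39 SE, edgeR adjusted p = 0.0223), and lost its call without sh-Prmt1 replicate 1 (edgeR adjusted p = 0.186), without sh-scramble replicate 2 (0.0809) and with DESeq2 (0.0575). The AKR1C genes are close relatives in sequence, and how Salmon shared reads among them is uncertain and was not tested. AKR1B10, a retinal reductase in humans, fell, with 7.93 and 7.09 TPM against 10.5 and 9.86 TPM (log2 fold change -0.79 ± 0.12 SE, edgeR adjusted p = 0.000582). AKR1A1 rose (log2 fold change 0.44, edgeR adjusted p = 0.00998) and lost its call without sh-Prmt1 replicate 1 (0.0731) or sh-scramble replicate 2 (0.0729). AKR7A2 (log2 fold change 0.14), AKR7A3 (-0.21), AKR1E2 (0.41) and AKR1B1 (-0.68, on 14 to 23 counts) were not called.

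Among the hydroxysteroid dehydrogenases, HSD17B4 fell, with 60.4 and 53.9 TPM in sh-Prmt1 against 77.9 and 84.8 TPM in sh-scramble (log2 fold change -0.53 ± 0.08 SE, edgeR adjusted p = 0.000770), and so did HSD17B7 (log2 fold change -0.69, edgeR adjusted p = 0.000180). HSD17B6 (log2 fold change -1.10, edgeR adjusted p = 0.0226) and HSD11B2 (-0.51, 0.0200) were lower too. Each lost its call with the effective length as an offset (edgeR adjusted p = 0.0758 and 0.0826) and without sh-Prmt1 replicate 1 (0.0909 and 0.0795); HSD17B6 also lost it without sh-scramble replicate 2 (0.168), and HSD11B2 without sh-scramble replicate 1 (0.0994). HSD17B10 had 139 and 127 TPM against 87.7 and 79.5 TPM and rose (log2 fold change 0.43 ± 0.12 SE, edgeR adjusted p = 0.0171), but not without sh-Prmt1 replicate 1 (edgeR adjusted p = 0.0766) or sh-scramble replicate 2 (0.138). HSD17B2 had 1.66 and 2.10 TPM against 1.02 and 0.941 TPM (log2 fold change 0.76 ± 0.22 SE, edgeR adjusted p = 0.0219), and its call was lost without sh-Prmt1 replicate 2 (0.156), without sh-scramble replicate 2 (0.0771) and with DESeq2 (0.0630). HSD17B12 was not called, with 44.9 and 46.1 TPM against 43.9 and 47.2 TPM (log2 fold change -0.12). The genes of all stems not named so far were not called and had log2 fold changes between -0.58 and 0.39; of them, DHRS2 passed the threshold without sh-scramble replicate 1 (log2 fold change -0.56, edgeR adjusted p = 0.0398). The 19 genes under the filter reached at most 18 counts in any library: ADH1A, ADH7, AKR1B15, AKR1C8P, AKR1D1, ALDH1A2, ALDH3B2, ALDH8A1, DHRS7C, DHRS13, HSD3B1, HSD3B2, HSD11B1, HSD17B1, HSD17B3, HSD17B13, HSD17B14, RDH8 and RDH12.

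In the authors' deposited table the sole dehydrogenase marked as changed in sh-Prmt1 was RDH11, with a log2 fold change of -1.50; ALDH1A1 and RDH10 had 1.49 and 1.41 there and were not marked. That mark sets a limit on the fold, whereas the calls here set none. At an adjusted p under 0.05 alone, the authors' values gave 9 genes higher and 12 lower. Of these, 9 and 11 were called the same way here. Of the retinoid handling genes outside the symbol rule, 4 of 19 tested were higher and 0 lower in sh-Prmt1: DGAT1 (log2 fold change 0.91), SCARB1 (0.97), CRABP2, a carrier of retinoic acid (2.05, on 15 and 17 counts against 4 and 2), and RBP2, with 61 and 31 counts against 0 and 0. Of 15 genes of NAD and NADP supply 7 were higher and 2 lower. Of 15 other carbonyl enzymes 2 were higher and 6 lower, and of 10 other steroid genes 3 were higher and 1 was lower. Over all 18452 genes tested, 20.5% were higher and 20.4% lower, and 4 of 19 lies close to the first of these shares. Of 5 enterocyte markers tested, 1 was higher, 2 were lower and 2 were not called, with log2 fold changes between -0.61 and 1.74. FABP1, which took most of that list's counts, was lower (log2 fold change -0.46). The enterocyte sum was 5634 and 5728 CPM in sh-Prmt1 against 7450 and 8127 CPM in sh-scramble. The part of these markers in the dehydrogenase values was not tested.

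The experiments share no libraries, and 57 mouse symbols had a human gene of the same symbol. Of these, 39 were tested in both experiments. Joint calls were not counted over all genes, so the counts below are not read as a trait of the dehydrogenases. Lower in Ctnnb1-ex3 and higher in sh-Prmt1 were 8 symbols, Aldh1a1, Aldh3b1, Aldh18a1, Akr1a1, Dhrs3, Hsd17b2, Rdh10 and Rdh13. Lower in both were 7, Aldh1l1, Dhrs4, Dhrs7, Hsd17b4, Hsd17b6, Hsd17b7 and Rdh11. Aldh7a1 alone was higher in Ctnnb1-ex3 and lower in sh-Prmt1, 11 were lower in Ctnnb1-ex3 and not called in sh-Prmt1, and 9 were called in neither. The other 3 were called in sh-Prmt1 and not in Ctnnb1-ex3, Hsd17b10 as higher and Hsd11b2 and Akr1b10 as lower; whether the changes differ between experiments was not tested. Aldh1a1 had a log2 fold change of -2.60 in Ctnnb1-ex3 over WT and 1.56 in sh-Prmt1 over sh-scramble, and Rdh11 fell by 1.21 and by 1.46. Adh4 and Dhrs9, steep falls in Ctnnb1-ex3, had 0.19 and -0.20 in sh-Prmt1 and were not called there. A shared symbol does not make the mouse and human genes equivalent, least of all in the Adh and Akr1 families, whose members differ between the species.

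**Figure D4:**
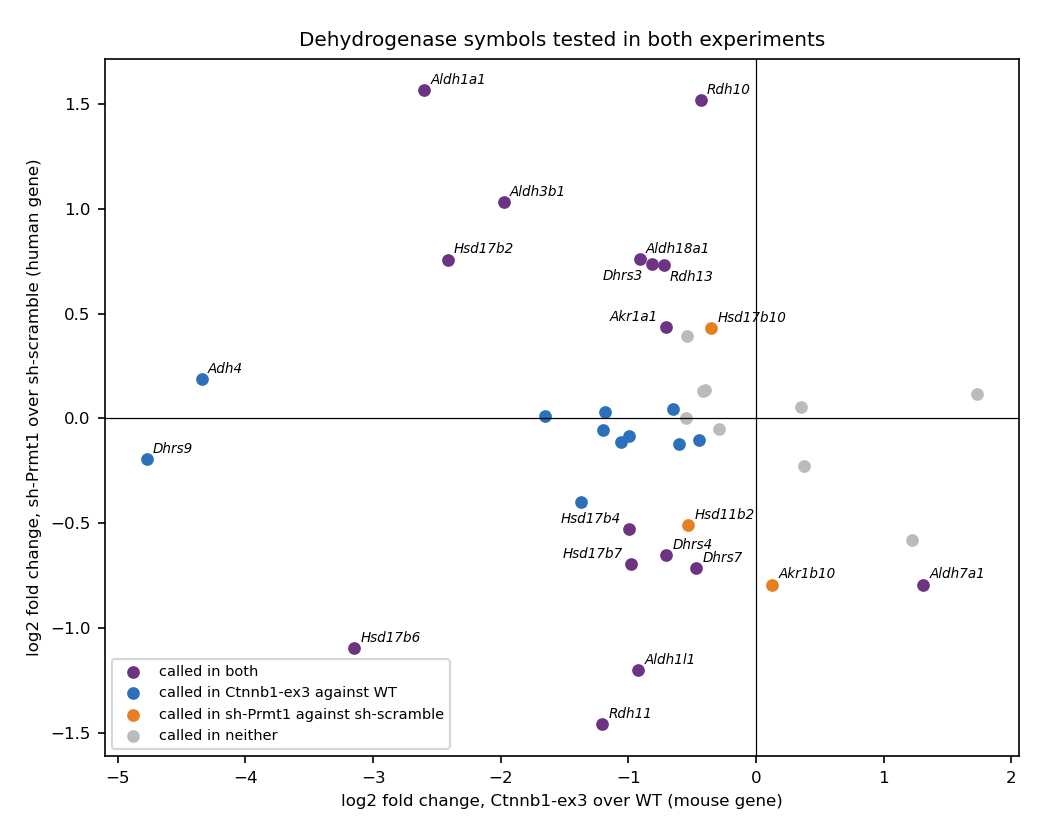
Log2 fold change of 39 dehydrogenase symbols tested in both experiments, Ctnnb1-ex3 over WT (mouse) on the horizontal axis and sh-Prmt1 over sh-scramble (human) on the vertical axis, coloured by where each was called. The 16 symbols called in both fall in 3 quadrants: 8 at upper left, 7 at lower left and Aldh7a1 at lower right.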

How the data were processed

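Polyadenylated RNA from 8 libraries was measured in 4 groups of 2, grouped by sample title. For the genotype experiment the authors deposited whole-number counts per mouse gene symbol; no value is below 1, which would follow if 1 had been added to each count, though no source states it. For the knockdown the authors deposited gene-level Salmon output, with estimated counts, TPM and gene lengths, per the file headers. The submitters' processing notes name mm10, Salmon and DESeq2 without versions; for the human build and annotation, none is given in the sources used here. Log2 fold changes and adjusted p-values in the authors' deposited tables are quoted only where named so, and the symbols of the human genes were taken from the authors' deposited table.

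The experiments were fitted separately in R 4.3.3 with edgeR 4.0.16, using filterByExpr, TMM factors, glmQLFit and the two-sided glmQLFTest. Benjamini-Hochberg adjustment covered every gene tested, with calls at an adjusted p under 0.05. Estimated counts were rounded first. Levels are CPM on TMM-scaled library sizes, or the deposited TPM. The fit was tested on simulated counts. Alternatives were other size factors, DESeq2 1.42.0, no filter, a replicate block, 1 taken away from each mouse count, the effective length as an offset, and each library left out. Coordinates, exon lengths and words of 31 bases shared with other genes came from GENCODE M21 (GRCm38), promoter windows from RefSeq; 64 of 83 mouse symbols were in that table and 19 were not. The floor of 3 counts and the exact 95% intervals of count ratios cover counting error only. In all groups the replicates differed beyond counting noise (chi-square per degree of freedom between 3.98 and 31.5), so none was treated as a repeat deposit.

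Chosen for naming were up to 8 called genes with the largest rise and fall, and the gene with the highest mean CPM of each of 7 symbol stems. A set list of retinoid, alcohol, aldehyde and steroid enzymes was added. Most of these are given with every library's value. HSD17B6, DHRS12, DHRS7, AKR7A2, HSD11B2 and ALDH1B1, among others, are given without it. Adh6a was given in full after its values were seen, because it belongs to the Adh run. The genes, lists and tests were chosen with earlier results of these data known.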

Additional observations from a re-analysis of the deposited data

How the results depend on the processing

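The count of dehydrogenases lower in Ctnnb1-ex3 (41) lay between 35 and 46 under the other alternatives and between 33 and 48 with 1 library left out. The 2 higher genes became 4 with upper-quartile factors, which shifted the median log2 fold change of all genes to 0.26 and that of the dehydrogenases to -0.69 (35 lower), and between 1 and 6 with 1 library left out. In sh-Prmt1 the 11 higher genes became between 6 and 11 with 1 library left out, with 6 and 7 when sh-scramble replicate 2 and sh-Prmt1 replicate 1 were dropped, and the 12 lower genes lay between 9 and 12 throughout. Without the filter the median of all genes in the knockdown was 0.31. With the replicate number as a block, 3 were higher and 46 lower in Ctnnb1-ex3, with all 43 calls among them, and 11 and 12 in sh-Prmt1. The labels do not say whether same-numbered libraries share more than a number. Their deviations correlated at 0.071 and -0.051, which cannot decide it. Taking 1 from every mouse count moved Akr1c18 to -7.53, Dhrs9 to -6.08, Hsd17b14 to 5.94 and Hsd3b3 to -5.88. The named genes that changed sign under any alternative were all uncalled ones. With 1 library left out, Akr1b10 lay between -0.15 and 0.33 (negative without Ctnnb1-ex3 replicate 1 and, at -0.046, without WT replicate 2), AKR1C2 between -0.13 and 0.061 (positive without sh-Prmt1 or, at 0.046, sh-scramble replicate 1), AKR1C1 between -0.074 and 0.24, ADH1B between -0.16 and 0.22, ADH4 between -0.25 and 0.70, ADH5 between -0.033 and 0.092, and ADH1C between -0.17 and 0.21. Upper-quartile factors gave 0.0023 for AKR1C2, and the effective length as an offset gave -0.0070 for AKR1C1 and -0.14 for ADH1B. The cause was not tested. The 22 mouse genes under the filter held at most 49 counts in any library and were not tested with it.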
